A study of Mus musculus with 26 samples.

Results

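The 32 genes described here encode proteins that copy DNA or prepare a cell for S phase, and they were looked up by gene symbol in a table of 55254 symbols. All 32 symbols were in the table, and all 32 passed the filter on low values, a TPM (a gene's length-scaled share of the transcripts in a library) of at least 1 in at least 5 libraries. Each of the 26 libraries holds the polyA RNA of 1 inner cell mass (ICM) from a CD-1 mouse embryo, prepared by FLASH-seq, which reads whole transcripts and was designed for single cells. E2.75 morulae grew for 24 h in KSOM medium under 1 of 4 conditions. The DMSO group (n = 5) received vehicle alone. The LY group (n = 7) received LY294002, an inhibitor of the lipid kinase PI3K, at 10 µM. The FGF4 group (n = 8) received the growth factor FGF4 with heparin at 1 µg/ml, and the LY+FGF4 group (n = 6) received both. All embryos had lost the zona pellucida and went through immunosurgery, which lyses the outer trophectoderm cells. The embryos of 5 litters were mixed before allocation, so libraries of a group are separate embryos of unknown litter.

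Before S phase, CDC6 and CDT1 help to load the MCM helicase onto origins of replication. CDC45 and the GINS complex then turn the loaded ring into an active helicase, the primase and polymerases copy the strands behind it, and the sliding clamp PCNA, placed by the RFC loader, holds the polymerases on DNA. Ribonucleotide reductase, thymidylate synthase, thymidine kinase and dUTPase keep the nucleotide pools supplied, and cyclin E with the E2F transcription factors governs entry into S phase. Cells of the preimplantation embryo and its ICM cycle quickly and with short gap phases, so many of these transcripts are known to be plentiful in them. Each library pools many cells, so fewer cells of a type and less RNA per cell cannot be told apart.

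A TPM value is a share of its library. Depth had to be estimated from the steps between TPM values, and came to 309830 to 1584498 reads a library, with group medians of 553368 (DMSO), 395449 (LY), 475979.5 (FGF4) and 380924.5 (LY+FGF4). Genes at TPM of 1 or more numbered 10692 (DMSO), 10089 (LY), 10504.5 (FGF4) and 8650.5 (LY+FGF4) in the median library, with 9860 to 10215 in LY libraries against 10212 to 11367 in DMSO libraries. The 6 libraries with fewer than 9000 such genes were FGF4 replicates 2 and 3 and LY+FGF4 replicates 2, 3, 5 and 8. Without them the LY+FGF4 group holds replicates 6 and 7 only. ICM identity was checked on 7 epiblast and 8 primitive endoderm markers. Their summed TPM was 1973.4 to 2350.2 and 358.2 to 783.3 in DMSO, 1382.1 to 2045.1 and 150.8 to 350.0 in LY, 971.5 to 1789.2 and 1199.9 to 2435.1 in FGF4, and 570.9 to 1158.4 and 687.1 to 2420.4 in LY+FGF4. The 10 trophectoderm markers, meant to be removed by immunosurgery, still summed to 839.4 to 1596.7 TPM with DMSO, 1089.2 to 1695.0 with LY, 527.8 to 1422.4 with FGF4 and 287.9 to 1481.7 with LY+FGF4. Of these markers Elf5 was at 0 in every FGF4 and LY+FGF4 library and none of the 10 was at 0 throughout DMSO or LY. Sox7, a primitive endoderm marker, was at 0 throughout DMSO, LY and LY+FGF4, Foxa2 throughout LY, and the epiblast marker Fgf4 throughout LY+FGF4. A sum mostly follows its most abundant genes, so changes per marker were also taken, on log2(TPM + 1) against vehicle. The median log2 fold change of the 7 epiblast markers was -3.31 after FGF4, -4.01 after both factors and -0.36 after LY alone. For the 7 primitive endoderm markers that passed the filter it was 2.28, 1.52 and -0.84 in the same order. The median epiblast marker thus fell further under FGF4 than the sum did. The sum of 6 oocyte-derived transcripts did not exceed 15.6 TPM in any library.

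In vehicle-treated ICMs the 32 genes spanned a wide range of levels. Rfc5, a subunit of the clamp loader, was highest at 579 ± 83.2 TPM (SD, n = 5). Rrm2, the small subunit of ribonucleotide reductase, followed at 421 ± 67.6 TPM, and Mcm2 at 420 ± 175 TPM, and Rrm2 and Mcm2 did not differ beyond their spread. Rfc4 (368 ± 100.2 TPM), Cdt1 (365 ± 44.1), Tk1 (360 ± 67.2) and Rfc2 (356 ± 38.8) came next, again within each other's spread. At the low end were Gins1 (19.9 ± 12.4 TPM), the catalytic polymerase alpha subunit Pola1 (13.97 ± 3.37), Ccne2 (13.8 ± 10.3) and Chaf1a (11.6 ± 9.47). The 18 members with a mean of at least 100 TPM in DMSO had a median coefficient of variation of 15.28% between DMSO ICMs, and the 14 members below 100 TPM one of 27.34%. No member was at 0 in any DMSO or LY library, whereas Gins1, Prim1, Tk1 and Chaf1a were listed at 0 in 1 to 3 of the 26 libraries, all of them FGF4 or LY+FGF4.

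**Figure D1:**
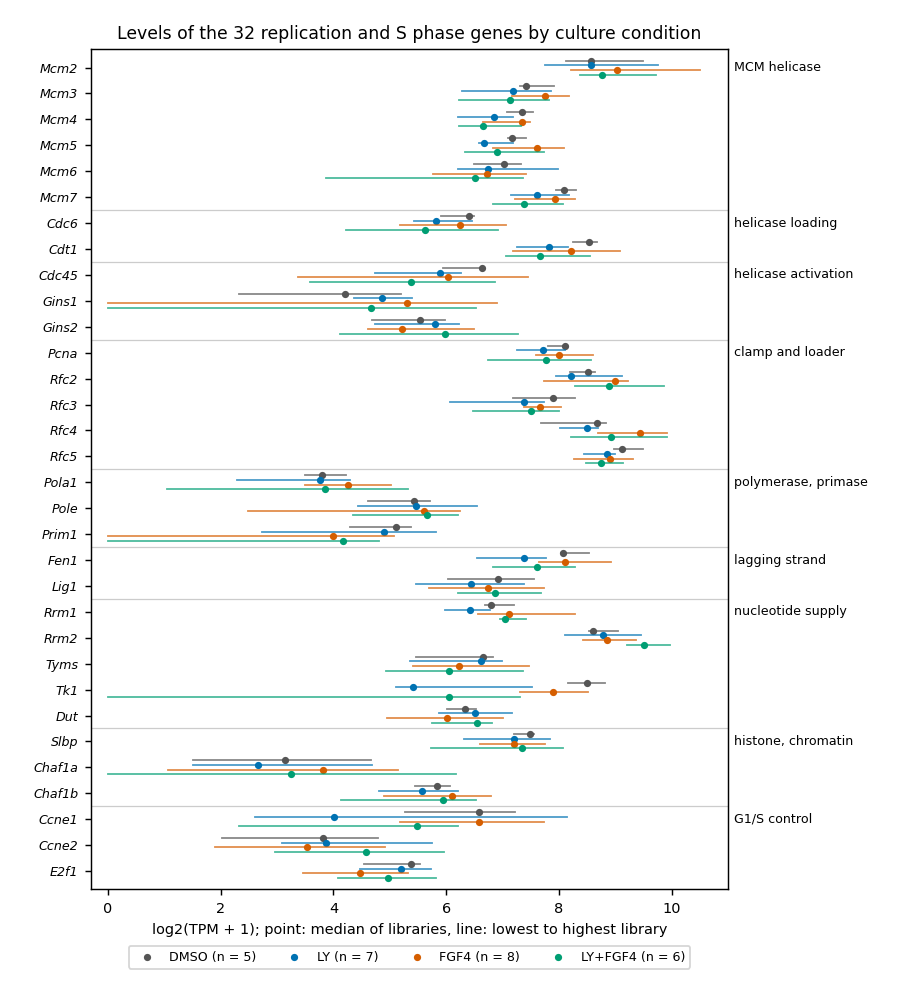
Level of each of the 32 genes as log2(TPM + 1) on the x axis, grouped by role, with the median of each condition as a point and the lowest to highest library as a line. Rfc5 is highest in DMSO and Chaf1a lowest, and the Tk1 ranges of the LY and LY+FGF4 libraries lie below that of DMSO.

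Many replication genes are known targets of E2F, so the promoters of the members were searched for 3 E2F letter strings, TTTCCCGC, TTTGGCGC and TTTCGCGC, on both strands. The windows run from 250 bases before to 50 bases after the gene start (RefSeq, GRCm38.p6), and 26 of the 32 members had at least 1 window. At least 1 E2F string was present for 9 of these 26 genes (34.62%), against 573 of 27025 genes (2.12%) in the whole table. The 9 genes were Mcm3, Mcm5, Mcm6, Mcm7, Cdc6, Cdt1, Rfc3, Pola1 and Lig1. The NF-Y string CCAAT was found for 53.85% of the members and 41.06% of all genes, and the CHR string TTTGAA, known from genes of late cell cycle phases, for 11.54% and 20.23%. For 6 members an E2F string lay before the start, and 4 of these could be shown outside every annotated exon. They are printed on the gene's strand, 5′ to 3′, because they place the strings in their context, with E2F strings in capitals. The Mcm5 stretch is chr8:75109334-75109393 on the plus strand, the Mcm6 stretch chr1:128359782-128359841 on the minus strand, the Cdc6 stretch chr11:98907987-98908046 on the plus strand and the Pola1 stretch chrX:93632260-93632319 on the minus strand. The Cdc6 stretch lies inside the GENCODE M21 model of Cdc6 but in no exon, and the other three lie outside the model of their gene.
Mcm5: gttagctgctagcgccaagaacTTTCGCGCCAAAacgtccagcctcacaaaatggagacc
Mcm6: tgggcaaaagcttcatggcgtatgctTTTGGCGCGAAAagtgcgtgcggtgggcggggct
Cdc6: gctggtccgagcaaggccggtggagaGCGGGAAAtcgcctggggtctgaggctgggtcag
Pola1: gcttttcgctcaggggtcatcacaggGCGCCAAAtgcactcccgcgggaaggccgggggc
In Mcm5 and in Mcm6 2 strings overlap on opposite strands, so that each run of capitals holds 2 matches. Cdc6 and Pola1 hold 1 match each, read on the opposite strand.

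**Figure D2:**
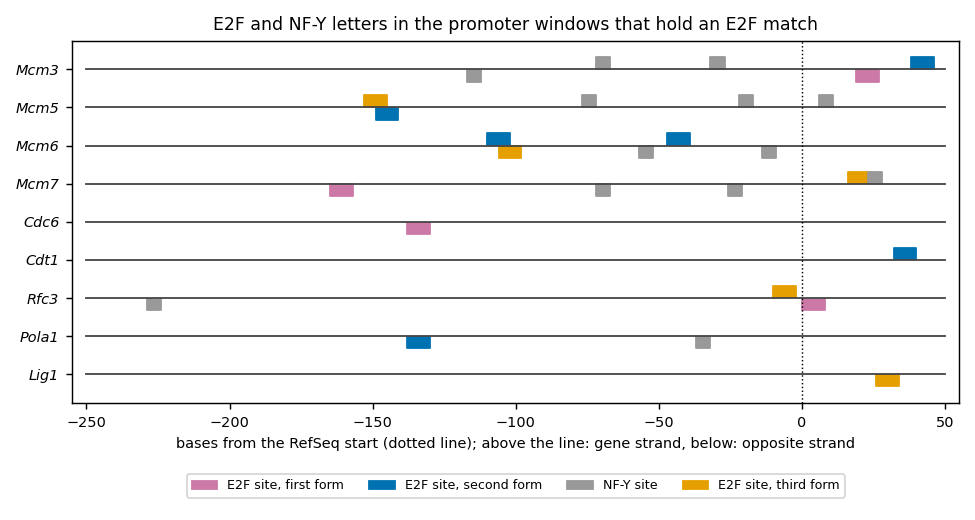
Position of E2F strings (the first form is TTTCCCGC, the second form TTTGGCGC, and the third form TTTCGCGC) and of the NF-Y string (grey) in the promoter windows of the 9 members with an E2F string; the x axis is the distance in bases from the RefSeq start. Mcm5, Mcm6, Mcm7, Cdc6 and Pola1 have an E2F string more than 100 bases before the start, and those of Mcm3, Cdt1 and Lig1 lie after it.

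Differences between conditions were fitted with limma on log2(TPM + 1) over 12034 genes, with p adjusted by Benjamini-Hochberg over all of them. A gene is called here when its adjusted p was under 0.05. Fold changes refer to log2(TPM + 1), so for genes with low TPM they understate the change. The LY main effect is the mean of the LY effects without and with FGF4, and the FGF4 main effect is the mean of the FGF4 effects without and with LY. Both use all 26 libraries, and both share libraries with the pairwise comparisons, so these are not independent of one another.

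Averaged over both FGF4 levels, LY lowered Tk1, Fen1, Mcm4 and Ccne1, 4 of 32 members in a fit that called 4.64% of all genes (3.6% lower). At a single FGF4 level only Tk1 was called for LY, and only with FGF4 present. The share of members called in this main effect was above the background. The members were chosen with earlier results of these data known, so no conclusion is drawn from that excess. Over all genes the fit called 433 lower and 125 higher, and with quantile normalization 297 lower and 199 higher, with the 4 members still called. At an unadjusted p under 0.05, 10 members were lower and 1 higher (19.2% of all genes passed). Of the 32 log2 fold changes 25 were negative, with a median of -0.29, where 62.7% of all genes were negative with a median of -0.18. Without the 6 libraries below 9000 genes, the member median became -0.11 beside -0.13 for all genes, and Tk1 alone was called. In that fit the LY effect without FGF4 kept its member median of -0.27, with 24 of 32 negative. The LY effect with FGF4, which then rests on 2 LY+FGF4 libraries, turned from a median of -0.30 with 24 of 32 negative to 0.13 with 11 negative, beside -0.16 for all genes. LY+FGF4 against DMSO turned from -0.30 with 23 negative to 0.11 with 14 negative, beside -0.20 for all genes. Tk1 remained lower and called in both. With the number of listed genes as a covariate no member was called in any comparison, and the LY main effect called 268 genes in place of 558. The member median was then -0.27 beside 0.05 for all genes, with Fen1 at -0.67 (adjusted p = 0.149), Mcm4 at -0.54 (adjusted p = 0.173) and Ccne1 at -1.46 (adjusted p = 0.278). With estimated reads as a covariate no member was called in the LY main effect, which called 99 genes. The member median was -0.34 beside -0.06 for all genes, with Fen1 at -0.80 (adjusted p = 0.0788), Mcm4 at -0.55 (adjusted p = 0.173) and Ccne1 at -1.84 (adjusted p = 0.178).

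With LY alone against DMSO, no member was called (0.374% of all genes were). At an unadjusted p under 0.05 there were 8 members, all lower, in a comparison where 8.59% of all genes passed. They were Mcm4, Mcm7, Cdt1, Rfc3, Rfc5, Fen1, Tk1 and Ccne1. For Cdt1, Fen1 and Tk1 all 7 LY libraries lay below all 5 DMSO libraries, an arrangement that 1.54% of all genes showed. Weighting libraries by their quality in limma called 4 members lower, namely Tk1, Fen1, Mcm4 and Ccne1, while its calls over all 12034 genes rose from 45 to 496. A fit on the DMSO and LY libraries alone called Tk1 and Fen1 among 161 genes.

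The FGF4 main effect was called for Rfc4, Rrm1 and Rrm2, all higher, and for no member lower. This was 3 of 32 in a fit that called 13% of all genes (4.39% higher), a smaller share of members than of all genes. Over all genes 528 rose and 1038 fell, and with quantile normalization 734 rose and 895 fell. The member median was 0.02 and that of all genes -0.19. FGF4 against DMSO called no member (2.44% of all genes), and 1 member, Rfc4, had an unadjusted p under 0.05 (15.5% of all genes). LY+FGF4 against FGF4 called Tk1 lower (3.55% of all genes called, 2.83% lower), and LY+FGF4 against LY called Rrm2 higher (6.3% called, 1.79% higher). LY+FGF4 against DMSO called Tk1 lower and Rrm2 higher (9.5% called, 7.3% lower and 2.19% higher). With quantile normalization the split over all genes moved from 340 lower and 87 higher to 190 and 128 against FGF4, from 542 and 216 to 409 and 271 against LY, and from 879 and 264 to 652 and 459 against DMSO. The test of the difference between the LY effect with and without FGF4 called no member in limma (0.0499% of all genes), and none had an unadjusted p under 0.05, as 6.03% of all genes did. No difference in the LY response between the 2 FGF4 levels was thus detectable for any member with these libraries.

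**Figure D3:**
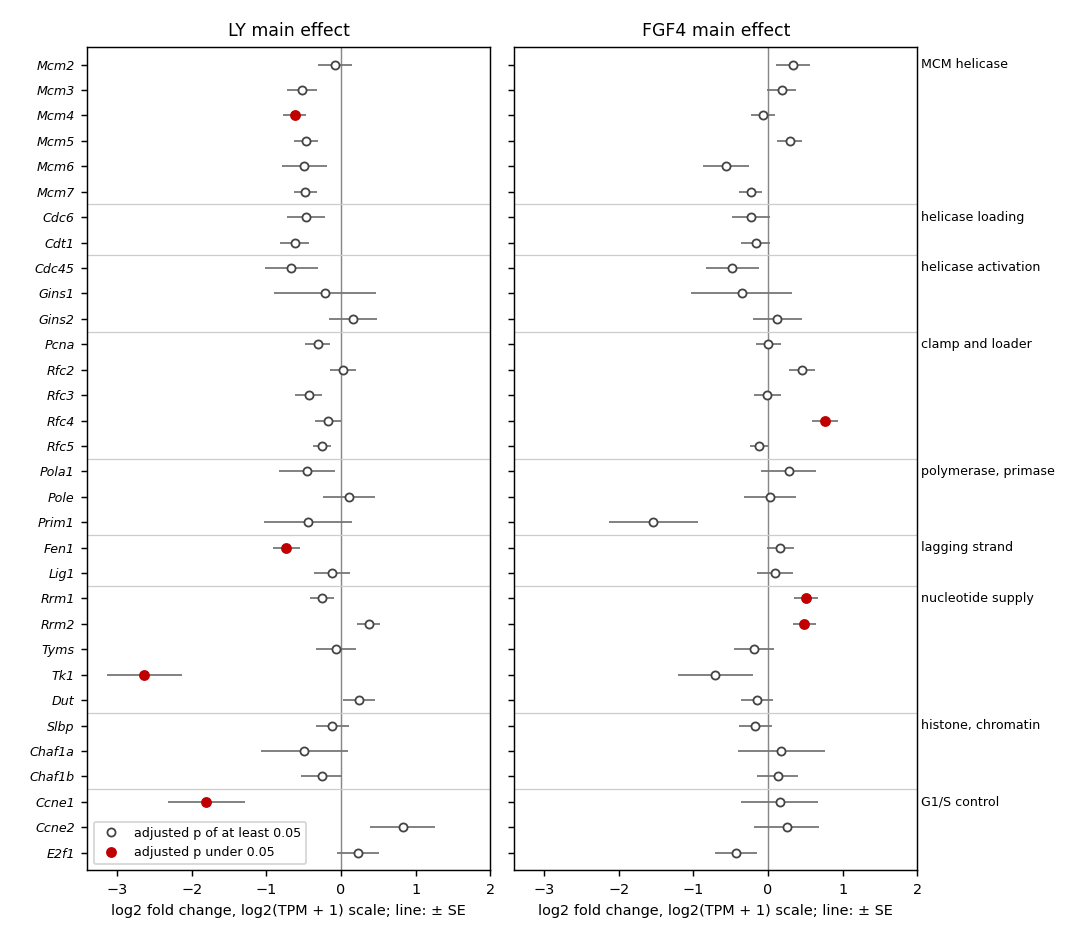
Log2 fold change (x axis, log2(TPM + 1) scale) with its standard error for the 32 genes, for the LY main effect on the left and the FGF4 main effect on the right; filled red points had an adjusted p under 0.05. Mcm4, Fen1, Tk1 and Ccne1 are filled and negative on the left, and Rfc4, Rrm1 and Rrm2 are filled and positive on the right.

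The 6 subunits of the MCM helicase, the ring that unwinds DNA at the fork, all had negative LY main effects, from -0.62 to -0.09 with a median of -0.49. Mcm4 was the subunit that passed the test. Its TPM in the 5 DMSO libraries was 186.23, 155.77, 134.07, 162.12 and 172.84. In LY its lowest, median and highest TPM were 72.62, 113.68 and 145.43, in FGF4 100.07, 162.435 and 177.4, and in LY+FGF4 74.02, 99.75 and 158.83. The LY libraries lay mostly below the DMSO libraries, with the upper LY values inside the DMSO range, and 5 of 6 LY+FGF4 libraries were below 7 of 8 FGF4 libraries. The LY main effect on Mcm4 was -0.62 (SE 0.16, limma adjusted p = 0.0184), and it was called with each of the 26 libraries left out in turn. Its separate LY effects were -0.64 without FGF4 (adjusted p = 0.321) and -0.60 with it (adjusted p = 0.11). Without the libraries below 9000 genes the LY main effect was -0.45 (adjusted p = 0.19).

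Mcm7 in DMSO was at 270.51, 246.27, 285.61, 316.04 and 273.26 TPM, against a lowest, median and highest of 141.03, 195.35 and 289.43 in LY. The groups overlapped, and its LY main effect of -0.48 (SE 0.15) had an adjusted p of 0.0717. Mcm7 shares 321 exon bases with Ap4m1 and 64 with Cops6 on the opposite strand. Cops6 was at 341 ± 32.2 TPM in DMSO (n = 5) and 685 ± 187 in LY+FGF4 (n = 6), and its part in the Mcm7 values was not tested. Mcm2 was the most abundant subunit in DMSO, at 280.09 to 716.75 TPM with DMSO, 215.43 to 861.73 with LY, 294.54 to 1451.72 with FGF4 and 330.82 to 842.57 with LY+FGF4, all overlapping. The ring holds each subunit in equal number, which refers to protein, while TPM measure RNA. The median ratio of Mcm2 to Mcm6 TPM was 3.142 with DMSO, 3.222 with LY, 4.949 with FGF4 and 7.259 with LY+FGF4. The ratio reached 32.521 in LY+FGF4 replicate 5, a library below 9000 genes in which Mcm6 was at 13.57 TPM. The DMSO range was 1.912 to 4.626, and the ratios between groups were not tested. The summed TPM of the 6 genes was 1322 ± 219 in DMSO (n = 5), 1119 ± 351 in LY (n = 7), 1518 ± 437 in FGF4 (n = 8) and 1151 ± 365 in LY+FGF4 (n = 6), with wide overlap.

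Of the 2 helicase loading factors, Cdt1 showed the clearer separation under LY. Its DMSO values were 340.46, 400.31, 409.35, 370.27 and 302.19 TPM. In LY the lowest, median and highest values were 151.4, 224.81 and 285.2, so that no LY library reached the lowest DMSO library. In LY+FGF4 they were 131.81, 203.53 and 372.07, and in FGF4 145.21, 298.46 and 544.19, a range that overlapped each other group. The difference of LY from DMSO was -0.73 (SE 0.28, limma adjusted p = 0.373) and the LY main effect -0.62 (SE 0.19, adjusted p = 0.0571), so Cdt1 was not called. The LY effect in the presence of FGF4 was -0.52 (adjusted p = 0.279) and became 0.13 without the libraries below 9000 genes. Cdc6, the ATPase that works with CDT1, was at 59.06 to 89.44 TPM with DMSO, 42.25 to 86.92 with LY, 35.11 to 131.82 with FGF4 and 17.67 to 119.72 with LY+FGF4, with no call.

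The helicase activators gave no call. Cdc45 had a mean of 88.0 ± 17.9 TPM in DMSO (n = 5), 54.7 ± 17.9 in LY (n = 7), 73.9 ± 47.9 in FGF4 (n = 8) and 50.7 ± 39.2 in LY+FGF4 (n = 6). It shares 209 exon bases with Ufd1, which was at 567 ± 125 TPM in DMSO. Gins1 and Gins2, which encode subunits of the GINS complex, were low and variable. Gins1 ranged from 4.0 to 35.54 TPM in DMSO and from 0 to 118.88 in FGF4, and Gins2 from 24.75 to 62.05 in DMSO and from 16.39 to 154.7 in LY+FGF4.

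Among the clamp and its loader, Rfc4 was the gene called in the FGF4 main effect. Its TPM in the DMSO libraries was 406.46, 346.3, 428.73, 203.39 and 454.1. The lowest, median and highest were 257.03, 360.48 and 411.9 in LY, 415.14, 692.13 and 965.34 in FGF4, and 296.71, 485.85 and 964.78 in LY+FGF4. Of the 8 FGF4 libraries 7 were above all DMSO libraries and 1 was inside the DMSO range. The FGF4 main effect was 0.76 (SE 0.17, limma adjusted p = 0.00411), and it was called with each library left out in turn. FGF4 against DMSO gave 0.88 (SE 0.25, adjusted p = 0.0544) and LY+FGF4 against LY 0.65 (adjusted p = 0.108). In the fit without libraries below 9000 genes, the main effect was 0.43 (adjusted p = 0.133).

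Rfc4 shares 194 exon bases with Eif4a2, a translation factor gene on the opposite strand. Eif4a2 was at 754 ± 181 TPM in DMSO (n = 5), 567 ± 75.3 in LY (n = 7), 1569 ± 905 in FGF4 (n = 8) and 1262 ± 872 in LY+FGF4 (n = 6). Its own FGF4 main effect was 0.88 (adjusted p = 0.0178), the same direction as that of Rfc4. Whether the authors counted by strand is not given in the sources used here, and the part of Eif4a2 reads in the Rfc4 values was not tested. The other loader subunits were not called. Rfc2 had an FGF4 main effect of 0.45 (adjusted p = 0.0869), with means of 356 ± 38.8 TPM with DMSO, 346 ± 106 with LY, 471 ± 129 with FGF4 and 528 ± 228 with LY+FGF4. Rfc3 had means of 238 ± 66.0 TPM in DMSO and 162 ± 45.7 in LY, and Rfc5 579 ± 83.2 in DMSO and 435 ± 66.2 in LY, both with overlapping libraries. Pcna, the clamp itself, was at 222.73 to 280.15 TPM with DMSO, 151.39 to 273.92 with LY, 191.31 to 388.47 with FGF4 and 106.68 to 378.06 with LY+FGF4. The processed pseudogene Pcna-ps2 reached 18.89 TPM, small beside Pcna.

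**Figure D4:**
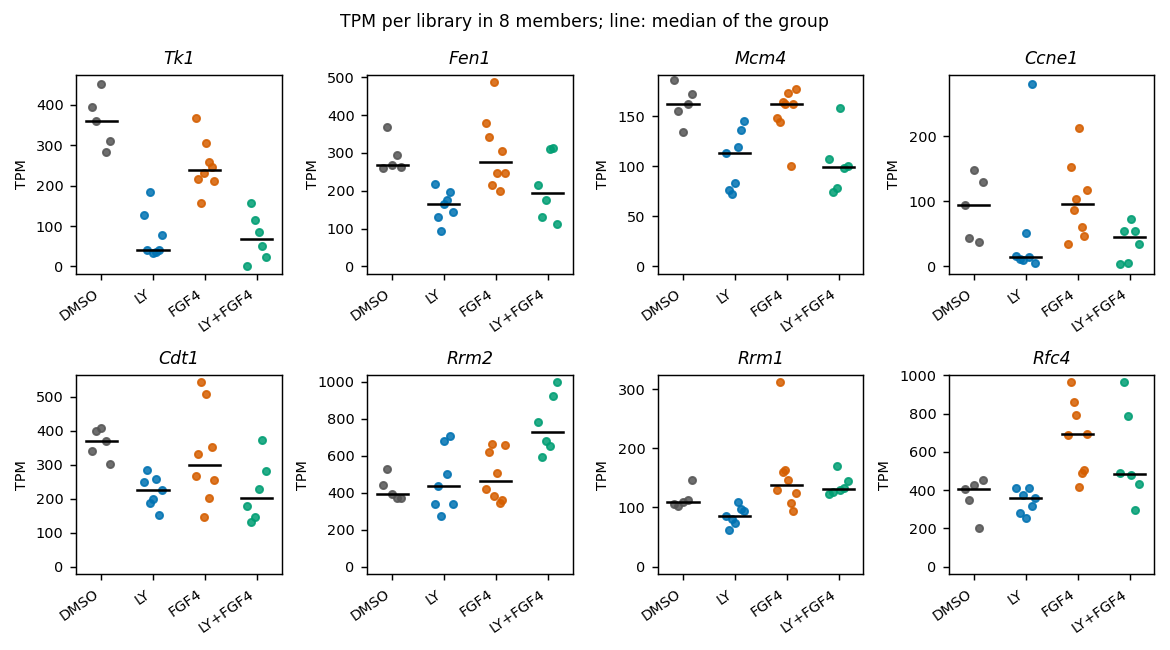
TPM in each of the 26 libraries for 8 members (Tk1, Fen1, Mcm4, Ccne1, Cdt1, Rrm2, Rrm1, Rfc4), 1 point per library and a line at the group median; each panel has its own y axis. For Tk1 the LY libraries (33.49 to 183.16) and the LY+FGF4 libraries (0 to 156.94) lie below all DMSO libraries (284.49 to 452.5).

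The DNA polymerase and primase genes were expressed at low levels and gave no call. Pola1 was at 13.97 ± 3.37 TPM in DMSO and 11.9 ± 5.10 in LY. Pole, the catalytic subunit of the leading strand polymerase, was at 40.05 ± 10.6 and 45.0 ± 24.4. Prim1, the primase subunit that makes the RNA primers, was at 18.51 to 40.73 TPM with DMSO, 5.68 to 55.51 with LY, 0 to 32.91 with FGF4 and 0 to 27.12 with LY+FGF4. It was listed at 0 in 1 of 8 FGF4 and 2 of 6 LY+FGF4 libraries. Its FGF4 main effect was -1.54 (SE 0.59, limma adjusted p = 0.0848). One read on a 2000-base transcript was worth an estimated 0.409 to 2.15 TPM, so the lowest of these values rest on few reads.

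On the lagging strand, Fen1, the nuclease that trims the flaps of Okazaki fragments, fell under LY. Its DMSO values were 260.58, 367.77, 269.28, 294.26 and 263.71 TPM. The lowest, median and highest values were 92.46, 165.49 and 217.52 in LY, 199.4, 275.78 and 487.72 in FGF4, and 113.44, 194.745 and 312.96 in LY+FGF4. Every LY library was below every DMSO library, while FGF4 and LY+FGF4 overlapped. The LY main effect was -0.73 (SE 0.18, limma adjusted p = 0.0167), called with each library left out in turn. The LY effects were -0.89 (SE 0.27, adjusted p = 0.156) without FGF4 and -0.58 (SE 0.24, adjusted p = 0.193) with it. When libraries below 9000 genes were dropped, the second became 0.07 and the main effect -0.41 (adjusted p = 0.256). Fen1 shares 130 exon bases with Tmem258, which was at 215 ± 41.6 TPM in DMSO and 220 ± 63.8 in LY. Lig1, the ligase that seals the fragments, was at 123 ± 44.3 TPM with DMSO, 105 ± 44.4 with LY, 122 ± 51.1 with FGF4 and 121 ± 46.8 with LY+FGF4, with no call.

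The nucleotide supply genes held the changes of both signs. Tk1, the thymidine kinase that salvages thymidine for DNA synthesis, fell most of all members under LY. Its TPM in the 5 DMSO libraries was 395.22, 359.46, 452.5, 284.49 and 309.4. The lowest, median and highest values were 33.49, 41.69 and 183.16 in LY, 157.57, 238.125 and 366.9 in FGF4, and 0, 67.885 and 156.94 in LY+FGF4. All LY libraries lay below all DMSO libraries, and all LY+FGF4 libraries below all FGF4 libraries, an arrangement that 0.49% of all genes showed in the second pair. The mean was 360 ± 67.2 TPM with DMSO, 77.1 ± 57.5 with LY, 249 ± 63.6 with FGF4 and 71.6 ± 58.9 with LY+FGF4.

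The LY main effect on Tk1 was -2.64 (SE 0.50, limma adjusted p = 0.00246), called with each library left out in turn. With FGF4 present, LY changed Tk1 by -2.79 (SE 0.68, adjusted p = 0.0198), and without it by -2.48 (SE 0.74, adjusted p = 0.156). LY+FGF4 against DMSO gave -3.34 (SE 0.76, adjusted p = 0.00654), in which all LY+FGF4 libraries lay below all DMSO libraries, as for 4.85% of all genes. A fit on those 2 groups alone did not call Tk1, nor did one with the trophectoderm score as a covariate. The Tk1 value of 0 was that of LY+FGF4 replicate 2, and without this library the effect with FGF4 was -1.77 (adjusted p = 0.0146), that against DMSO -2.32 (adjusted p = 0.00202) and the LY main effect -2.12 (adjusted p = 4.62e-05). Tk1 was called against DMSO in LY alone without the libraries below 9000 genes (adjusted p = 0.000969). With the number of genes as a covariate its LY main effect was -1.70 (adjusted p = 0.15), and with estimated reads as a covariate -2.34 (adjusted p = 0.063). Tk1 shares 83 exon bases with Afmid, which was at no more than 71.47 TPM in any library.

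Rrm1 and Rrm2 encode the large and small subunits of ribonucleotide reductase, which makes deoxyribonucleotides. Both had positive FGF4 main effects, while FGF4 against DMSO called neither. Rrm2 in DMSO was at 443.6, 529.19, 390.39, 370.19 and 370.32 TPM. Its lowest, median and highest TPM were 275.27, 437.47 and 704.61 in LY, 344.08, 463.775 and 662.98 in FGF4, and 592.19, 729.325 and 999.89 in LY+FGF4. The LY+FGF4 libraries were all above the DMSO libraries, which 1.74% of all genes showed, and overlapped the upper LY and FGF4 libraries. LY+FGF4 against DMSO gave 0.86 (SE 0.23, limma adjusted p = 0.0205) and against LY 0.77 (SE 0.22, adjusted p = 0.0296), while FGF4 against DMSO gave 0.20 (adjusted p = 0.733). The FGF4 main effect was 0.49 (SE 0.15, adjusted p = 0.0361), called in 15 of 26 fits that left out 1 library each. The call was lost without DMSO replicate 7, 8 or 9, LY replicate 2, 4 or 8, FGF4 replicate 2, 3 or 8, or LY+FGF4 replicate 7 or 8. The call against LY was lost without LY replicate 2, 4 or 8 or LY+FGF4 replicate 2, 7 or 8, and that against DMSO without DMSO replicate 8. Without the libraries below 9000 genes these 2 differences were 0.81 (adjusted p = 0.137) and 0.89 (adjusted p = 0.109). The test of whether the LY effect on Rrm2 differed with FGF4 gave no call (unadjusted p = 0.0727, adjusted p = 0.849).

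Rrm1 in DMSO was at 106.55, 102.3, 109.99, 112.05 and 145.94 TPM. Its lowest, median and highest TPM were 62.05, 84.96 and 108.78 in LY, 94.03, 137.72 and 311.48 in FGF4, and 123.14, 130.495 and 170.82 in LY+FGF4. All LY+FGF4 libraries were above all LY libraries, as for 0.623% of all genes. The FGF4 main effect was 0.51 (SE 0.16, limma adjusted p = 0.0361), called in 19 of 26 fits with 1 library left out. LY+FGF4 against LY gave 0.68 (SE 0.23, adjusted p = 0.0686) and FGF4 against DMSO 0.34 (SE 0.23, adjusted p = 0.52). The main effect was not called without DMSO replicate 3, 6, 7 or 8, LY replicate 3 or 5, or LY+FGF4 replicate 5. Leaving out the libraries below 9000 genes, the FGF4 main effects were 0.37 for Rrm1 (adjusted p = 0.151) and 0.43 for Rrm2 (adjusted p = 0.157), and Mcm5 was the member called. The median ratio of Rrm2 to Rrm1 TPM was 3.549 with DMSO, 4.585 with LY, 3.362 with FGF4 and 5.695 with LY+FGF4. Tyms, which makes thymidylate from deoxyuridylate, and Dut, which removes dUTP, were not called. Tyms was at 84.04 ± 29.1 TPM in DMSO and 86.0 ± 30.4 in LY, and Dut at 77.5 ± 11.4 and 92.0 ± 26.6.

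The 100 bases nearest to the start that lie in the promoter window and outside every GENCODE M21 exon are shown for Tk1 and Rrm2, the members with the largest called changes in each direction. The Tk1 stretch is chr11:117826093-117826192 on the minus strand and the Rrm2 stretch chr12:24708141-24708240 on the plus strand (RefSeq, GRCm38.p6), both printed on the gene's strand with E2F strings and CCAAT in capitals.
Tk1: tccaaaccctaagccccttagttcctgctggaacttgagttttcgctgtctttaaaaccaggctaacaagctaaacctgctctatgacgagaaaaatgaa
Rrm2: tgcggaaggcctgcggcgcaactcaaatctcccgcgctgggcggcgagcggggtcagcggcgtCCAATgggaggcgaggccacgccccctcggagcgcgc
The Rrm2 stretch holds 1 CCAAT on the gene's strand and no E2F string of the 3 searched, and the Tk1 stretch holds neither. The same letters were absent from the whole 300-base window of Tk1. The windows of Ccne1, Fen1 and Rfc4 also lacked the 3 E2F strings, and Mcm4 had no window.

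The 9 members with an E2F string all had negative LY main effects, from -0.62 to -0.12 with a median of -0.47. The 17 members with a window and no such string had a median of -0.26, with 14 of 17 negative. None of the 9 was called, and the 3 called genes with a window, Tk1, Fen1 and Ccne1, were among the 17. Of all genes 62.7% had negative LY main effects, as did 25 of the 32 members. The split is a description of 26 genes with no test, and it was not repeated without the libraries below 9000 genes.

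The histone and chromatin genes gave no call. Slbp, which binds the stem-loop of histone mRNAs, was at 169 ± 19.4 TPM with DMSO, 157 ± 49.7 with LY, 149 ± 41.7 with FGF4 and 160 ± 84.6 with LY+FGF4. Chaf1b, a subunit of the chromatin assembly factor that loads histones behind the fork, was at 55.4 ± 8.52, 48.5 ± 16.5, 66.8 ± 29.6 and 58.0 ± 29.8 TPM in the same order. Its partner Chaf1a was the least abundant member in DMSO and varied widely between libraries, from 0 to 71.23 TPM. Chaf1a shares 4648 exon bases with Ubxn6 on the opposite strand, and the part of Ubxn6 in its values was not tested.

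Of the G1/S regulators, Ccne1, which encodes cyclin E1, fell under LY. Its DMSO values were 94.49, 43.03, 148.61, 37.79 and 129.27 TPM. The LY values were 15.27, 11.49, 9.71, 51.26, 15.1, 280.77 and 5.08, so 5 LY libraries were below all DMSO libraries, 1 was inside the DMSO range and 1, replicate 7, was above it. The lowest, median and highest values were 35.09, 95.145 and 212.61 in FGF4, and 4.01, 44.51 and 73.4 in LY+FGF4. The LY main effect was -1.81 (SE 0.52, limma adjusted p = 0.0404), called in 13 of 26 fits with 1 library left out. It was lost without DMSO replicate 3, 7 or 9, LY replicate 2, 3, 4, 6 or 8, FGF4 replicate 4, 5 or 8, or LY+FGF4 replicate 2 or 5. The LY effect was -1.81 both without FGF4 (SE 0.76, adjusted p = 0.455) and with it (SE 0.70, adjusted p = 0.152). In the fit without libraries below 9000 genes, the main effect was -1.07 (adjusted p = 0.348). Ccne2, the second cyclin E gene, was at 13.8 ± 10.3 TPM with DMSO, 22.5 ± 17.3 with LY, 14.6 ± 10.4 with FGF4 and 28.5 ± 19.2 with LY+FGF4. E2f1, the transcription factor, was at 36.1 ± 9.43, 34.8 ± 10.8, 23.1 ± 10.98 and 33.7 ± 16.5 TPM, and neither Ccne2 nor E2f1 was called. Ccne2 shares 609 exon bases with Ints8 on the opposite strand. Ints8 was at 44.4 ± 12.45 TPM in DMSO and 46.7 ± 9.3 in LY, and its part in the Ccne2 values was not tested.

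In the LY main effect, which called 4.64% of all genes, 1 of 56 further replication genes was called. Mtbp, a partner of the helicase activation step, fell (log2 fold change -1.46, SE 0.34, limma adjusted p = 0.0119). Its lowest, median and highest TPM were 14.06, 16.7 and 27.03 in DMSO and 0.88, 3.51 and 15.23 in LY. Of 23 tested further G1/S regulators, Cdkn1a, which encodes the CDK inhibitor p21, was the gene called, and it rose by 2.36 (SE 0.65, adjusted p = 0.0321), from 32.9 ± 30.3 TPM in DMSO to 187 ± 83.1 in LY, with 39.0 ± 52.9 in FGF4 and 70.8 ± 73.6 in LY+FGF4. None of 15 replication checkpoint genes passed the test. Of 30 mitotic genes Nusap1, a spindle protein, rose by 1.44 (SE 0.42, adjusted p = 0.042). In none of these lists was the share called above that of all genes. The median LY main effect was -0.17 over the 56 replication genes, -0.34 over the checkpoint genes and 0.03 over the mitotic genes, beside -0.18 over all genes. Without the libraries below 9000 genes none of these 3 genes was called, at -1.04 for Mtbp (adjusted p = 0.144), 2.31 for Cdkn1a (adjusted p = 0.121) and 0.56 for Nusap1 (adjusted p = 0.483). With 1 library left out, Mtbp was called in 26 of 26 fits, Cdkn1a in 21 and Nusap1 in 11.

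In the FGF4 main effect, which called 13% of all genes (4.39% higher), 4 of 30 mitotic genes rose and 1 fell. Top2a, the topoisomerase that untangles replicated chromosomes, rose by 1.31 (SE 0.26, limma adjusted p = 0.00112). Its TPM was 25.06 to 59.89 in DMSO and 61.25 to 107.33 in FGF4. FGF4 against DMSO on its own called none of the 30 mitotic genes, Top2a included. Ttk, Ccnb2 and Nuf2 rose by 1.39, 0.74 and 0.80, and Birc5 fell by 0.39. Of the 56 further replication genes Timeless (1.03) and Rbbp7 (0.73) rose, and Ticrr (-0.86) and Rbbp4 (-1.16) fell, a smaller share than of all genes. The CDK inhibitor Cdkn1c fell by 2.71 (SE 0.59, adjusted p = 0.00277), and Fbxo5 and Wee1 each fell by 0.95. In LY+FGF4 against LY, which called 6.3% of all genes, Top2a, Timeless and Rbbp7 rose and Cdkn1c and Dna2 fell. In LY+FGF4 against DMSO, which called 9.5% of all genes, Top2a rose and E2f7, Birc5 and Cdca8 fell. With the libraries below 9000 genes left out, the FGF4 main effects of Timeless (1.22, adjusted p = 0.032), Rbbp7 (0.65, adjusted p = 0.019) and Cdkn1c (-2.97, adjusted p = 0.00128) and the difference of Cdkn1c from LY (-4.71, adjusted p = 0.00336) were still called. The other differences of this paragraph were not, among them the FGF4 main effect of Top2a at 0.71 (adjusted p = 0.0607). Leaving out single libraries, the FGF4 main effect was called in 6 of 26 fits for Wee1, 7 for Ticrr, 9 for Nuf2, 13 for Timeless, 21 for Fbxo5, 25 for Birc5 and all 26 for the others. Against LY, Rbbp7 was called in 4 of 13 such fits, Timeless in 7, Dna2 in 12, and Cdkn1c and Top2a in all 13. Against DMSO, Cdca8 was called in 4 of 11, E2f7 in 5, Top2a in 6 and Birc5 in all 11. With the number of genes as a covariate, no call of this paragraph was kept. The FGF4 main effect was then -0.12 for Rbbp4 (limma adjusted p = 0.903) and 0.996 for Top2a (adjusted p = 0.0963).

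Added up over the 32 genes, DMSO libraries held 5653 ± 209 TPM (5385.0 to 5933.49, n = 5), which is 0.565% of all transcripts. LY libraries held 4521 ± 806 TPM (n = 7), and 6 of 7 were below the lowest DMSO library. Without Tk1 the LY sum was 4444 ± 841 TPM against 5293 ± 231 in DMSO. Of the 7 LY libraries 5 were then below the lowest DMSO library and 1 was above the highest. FGF4 libraries held 6120 ± 858 TPM (n = 8), with 5 above the highest and 1 below the lowest DMSO library. LY+FGF4 libraries held 5423 ± 652 TPM (n = 6), with 4 below the lowest and 1 above the highest DMSO library. Without Tk1 these counts were 6 above and 1 below in FGF4, and 2 below and 2 above in LY+FGF4. The mean log2(TPM + 1) of the members was 5.91 to 6.33 in the 4 LY+FGF4 libraries below 9000 genes and 6.62 and 6.95 in the other two. In FGF4 replicates 2 and 3, also below 9000 genes, it was 6.86 in each. Gene number thus moved with the member level in LY+FGF4 and not in FGF4, and its part in the results was not tested beyond the fits given above.

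**Figure D5:**
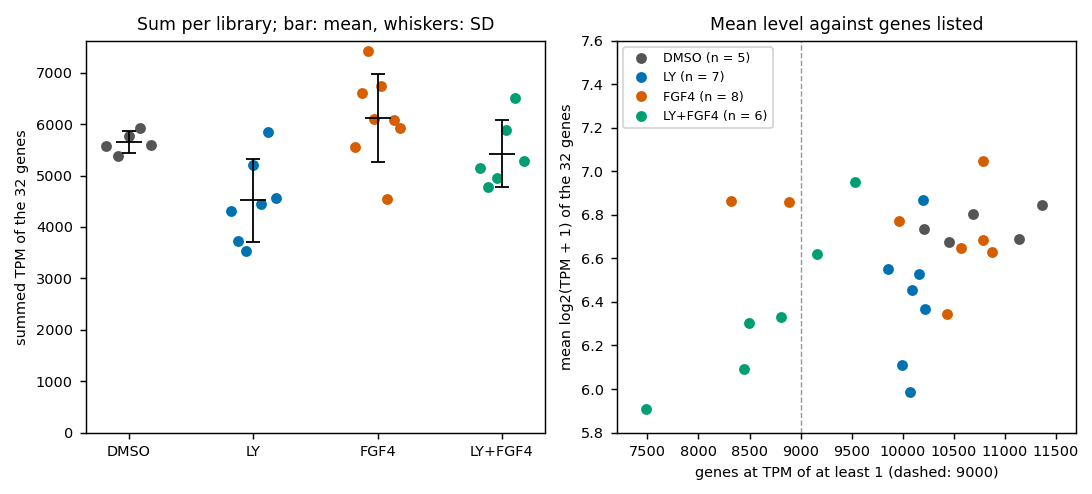
Left, summed TPM of the 32 genes in each library with the group mean and SD; right, mean log2(TPM + 1) of the 32 genes against the number of genes at a TPM of at least 1, with a dashed line at 9000. Of the 7 LY libraries 6 lie below the lowest DMSO sum, and 4 of the 6 LY+FGF4 libraries lie left of the dashed line.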

How the data were processed

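The deposited values are TPM per gene symbol, computed by the authors, and reads had been trimmed and de-duplicated per the labels. The submitters' processing notes name STAR, RSEM and mm10, and the sources used here do not give versions, annotation or strandedness. From these values, log2(TPM + 1) was fitted with limma 3.58.1 in R 4.3.3 (1 mean per group, trend and robust options, two-sided, adjusted p under 0.05) for the 12034 genes with TPM of 1 or more in 5 or more libraries. The fit was tested on simulated data. Read numbers were estimated under an assumed fragment length of 200 bases. Replicate numbers repeat between groups but did not pair the libraries (31 same-number pairs, median r of residuals -0.00406, none over 0.1). Coordinates and exon overlaps are from GENCODE M21 (GRCm38), which may differ from the authors' annotation, and 13 of 32 members share exon bases with another gene. All 32 members are named, and of 4 further lists the called genes, up to 6 per list and comparison, apart from 1 that is not reported here. The members and lists were chosen with earlier results of these data known. The alternatives tried were other pseudocounts, filters, scalings, weights, covariates, samples in the fit, a replicate block and left-out libraries.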

Additional observations from a re-analysis of the deposited data

Results flagged for a closer look

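Within groups, 11 of 132 sets of member values had 1 library that stood apart from the rest by Dixon's criterion, which chance meets in about 1 in 20 sets. FGF4 replicate 2, a library with fewer than 9000 listed genes, accounted for 4 of them, being lowest for Rfc2 (211.82 TPM), Pole (4.6 TPM) and Prim1 (0 TPM) and highest for Rrm1 (311.48 TPM). DMSO replicate 9 was highest of its group for Mcm3 (239.03 TPM) and Rrm1 (145.94 TPM), and LY replicate 4 lowest for Rfc3 (66.4 TPM) and Prim1 (5.68 TPM). The other cases were low values of FGF4 libraries, for Cdc45 in replicate 3 (9.39 TPM), Mcm4 in replicate 6 (100.07 TPM) and Gins1 in replicate 8 (0 TPM).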

How the results depend on the processing

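Of 109 counts of called members under alternatives other than leaving out 1 library, 75 stayed within 1.5 times. For LY against DMSO the count of 0 became 1 with a pseudocount of 5, 4 with library weights, 1 without the libraries below 9000 genes and 2 with only the groups compared, where the count over all genes was 45 and became 54, 496, 134 and 161, and it was 0 in each fit with 1 library left out. For FGF4 against DMSO the count of 0 became 1 with quantile normalization and with library weights. For LY+FGF4 against FGF4 the count of 1 became 0 with a pseudocount of 0.1, with the number of genes as a covariate, with the replicate block and with only the groups compared. For LY+FGF4 against LY the count of 1 became 0 with library weights, without the trend and robust options, with the number of genes or the trophectoderm score as a covariate, with the replicate block, without the libraries below 9000 genes and with only the groups compared. For LY+FGF4 against DMSO the count of 2 became 1 without the trend and robust options, with the replicate block, without the libraries below 9000 genes and with only the groups compared, and 0 with the number of genes or estimated reads as a covariate. For the LY main effect the count of 4 became 0 with either of these 2 covariates, and 1 with the replicate block and without the libraries below 9000 genes. For the FGF4 main effect the count of 3 became 1 without a filter, without the trend and robust options, with estimated reads or the trophectoderm score as a covariate, with the replicate block and without the libraries below 9000 genes, and 0 with the number of genes. With the trophectoderm score as a covariate, LY+FGF4 against DMSO called Mcm4 and Cdt1 in place of Tk1 and Rrm2, and the LY main effect Cdt1 in place of Ccne1. The replicate block rests on shared numbers only. Leaving out 1 library at a time gave 0 to 1 members for FGF4 against DMSO, 1 to 2 for LY+FGF4 against FGF4, 0 to 1 against LY, 1 to 4 against DMSO, 3 to 7 for the LY main effect, 1 to 4 for the FGF4 main effect and 0 to 0 for the interaction. LY+FGF4 replicate 7 gave the 7 for the LY main effect and the 4 for LY+FGF4 against DMSO, LY+FGF4 replicate 6 or LY replicate 7 the 4 for the FGF4 main effect, and DMSO replicates 7 and 8 the count of 1 for the FGF4 main effect. DMSO replicate 8 also gave the count of 1 for LY+FGF4 against DMSO, and LY+FGF4 replicate 6 the 2 against FGF4. The 0 against LY came without LY replicate 2, 4 or 8 or LY+FGF4 replicate 2 or 8, and the 1 for FGF4 against DMSO without FGF4 replicate 5 or 6. Without the libraries below 9000 genes the number of members with a negative difference went from 24 to 11 in LY+FGF4 against FGF4 and from 23 to 14 in LY+FGF4 against DMSO. Of the differences given with values in the report, those that changed sign were Fen1 (0.0726) and Cdt1 (0.129) in LY+FGF4 against FGF4 and Fen1 against DMSO (0.1121). The cause was not tested. Quantile normalization moved the median of all genes in the LY main effect from -0.18 to -0.0012, in the FGF4 main effect from -0.19 to -0.0237 and in LY+FGF4 against DMSO from -0.37 to -0.0277, with 4, 3 and 2 members called as before.

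With 5 to 8 ICMs per group and limited depth, low members such as Chaf1a, Pola1 and Gins1 could not be measured precisely. Differences of members that missed the threshold are not shown to be absent. TPM carry no information on cell number.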
